A study of Homo sapiens with 12 samples.

Results

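Amino acids cross the membranes of a human cell through solute carriers, and 7 families of these carriers were followed here in osteosarcoma cells given NXP800. The genes were chosen by name alone. Every symbol of the SLC1, SLC3, SLC6, SLC7, SLC36, SLC38 and SLC43 families was taken, without pseudogenes or antisense genes, which gave 59 of the 43236 symbols in the count files. SLC1 has 7 members, SLC3 has 2, SLC6 has 19, SLC7 has 13, SLC36 has 4, SLC38 has 11 and SLC43 has 3.

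The cells were MNNG/HOS, a human osteosarcoma line obtained by chemical transformation of HOS, which the labels call HOS-MNNG. NXP800 is an oral small molecule that was first developed against the pathway of the heat shock factor HSF1. Cells received 300 nM NXP800, or DMSO, its solvent, for 6 h or for 24 h, which makes 4 groups of 3 libraries. All groups grew in high-glucose DMEM with fetal bovine serum, and 1 cell line stands for the tumor. The study's methods describe its results in general as repeats of independent experiments, and the labels number the replicates without saying whether each is a separate culture. The p-values measure the spread between these libraries.

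Some of these carriers bring amino acids in along a sodium gradient, others exchange one amino acid for another, and others work on the lysosome. The SLC7 light chains that pair with a heavy chain of SLC3 reach the membrane only as a heterodimer. Cells short of amino acids are known to raise the transcripts of many carriers through the integrated stress response, in which the kinase GCN2 and the transcription factor ATF4 act. ATF4 binds as a dimer with C/EBP proteins to a composite site, the C/EBP-ATF response element.

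Libraries held 30810614 to 31947656 counts on genes. Reads on no annotated gene took 6.66 to 8.14% of the counter's entries at 6 h and 2.73 to 3.67% at 24 h, so NXP800 and DMSO were compared only within a time point. Of the osteoblast lineage markers, RUNX2, COL1A1 and SPP1 were above 10 CPM in every group mean, while SP7, IBSP and BGLAP were at or near 0 and ALPL and COL1A2 did not pass 0.302 CPM. Of the markers of other cell types, PTPRC, CD3E and ALB did not pass 0.0869 CPM and PECAM1 did not pass 0.697 CPM in any group mean. EPCAM was at 5.78 to 10.1 CPM and CD68 at 65.6 to 142 CPM. Both were highest in NXP800 at 24 h, and their part in the results was not tested. CPM are counts relative to the TMM-scaled library size.

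Of the 59 members, 30 had enough counts to be tested. Of the other 29, 10 had no count in any library, and the remaining 19 reached at most 10 counts in a library. Of these 29, 16 belong to SLC6, the family of neurotransmitter carriers, and they include the serotonin carrier SLC6A4 and the dopamine carrier SLC6A3. The untested members of the other families are SLC1A2, SLC1A6, SLC7A3, SLC7A4, SLC7A9, SLC7A10, SLC7A13, SLC7A14, SLC36A2, SLC36A3, SLC38A5, SLC38A8 and SLC38A11. A count of 0 says that the transcript was not detected at this depth.

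The levels of different genes were compared per length, as CPM per kb of exon. In DMSO at 6 h SLC7A5, the LAT1 light chain that carries large neutral amino acids, had the highest level with 272 ± 20 CPM per kb (SD, n = 3). Next came SLC1A5, the glutamine carrier ASCT2, with 109 ± 9.39 CPM per kb. The heavy chain SLC3A2 with 62.3 ± 3.83 and the system A carrier SLC38A2 with 61.6 ± 2.22 CPM per kb did not differ beyond their spread. The same held for SLC38A1 with 35.4 ± 1.63 and the arginine and lysine carrier SLC7A1 with 34.1 ± 2.67 CPM per kb. SLC6A6 with 19.6 ± 1.96, SLC7A11 with 18.9 ± 3.03 and SLC7A6 with 16.6 ± 0.932 CPM per kb followed, where SLC7A11 lay within its spread of both neighbours. At the low end, SLC1A3 had 0.0751 ± 0.0111 and SLC7A7 had 0.0542 ± 0.00636 CPM per kb. The length counts every annotated exon base of a gene, 21227 for SLC1A3 and 3974 for SLC1A1, so the order depends on it. In CPM SLC1A3, with a mean of 1.59, was above SLC1A1 with 1.07. Of the 6 genes with the highest levels in DMSO at 6 h, 5 rose with NXP800 at both times. So did 16.5% of all genes, a share taken over genes of any level and not over genes of like level. Of the members that fell more than 2-fold at some time, only SLC6A6 was above 2 CPM per kb.

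**Figure D1:**
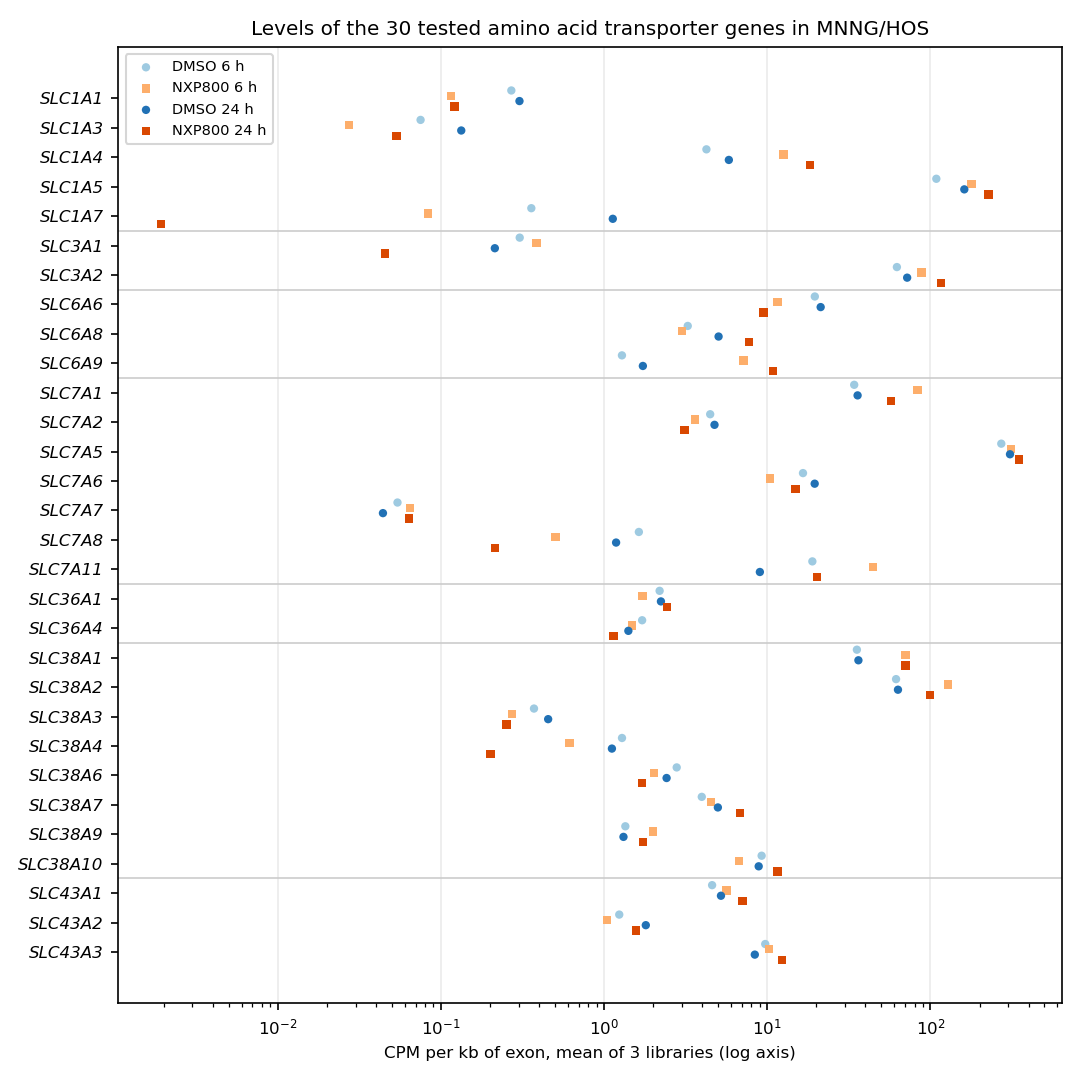
Level of each of the 30 tested transporter genes in the 4 groups. The x axis is CPM per kb of exon on a log scale, each point is the mean of 3 libraries (circles, DMSO; squares, NXP800), and grey lines separate the families; levels run from SLC7A5 at 350 to SLC1A7 at 0.00193 CPM per kb, both in NXP800 at 24 h, the second resting on 1 count.

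The promoters were searched for letters of the C/EBP-ATF element, TGATGNAA, and of the antioxidant response element, TGACNNNGC, on both strands. The windows are RefSeq's (GRCh38.p14), 250 bases before to 50 bases after each gene's start, and 44 of the 59 members had one. TGATGNAA stood in 4 of these 44 (9.09%) and in 3.67% of all 27305 windows. The members that hold it are shown with 30 bases around the match, since 3 of them rose at both times and 1 fell at both, and capitals mark the match. Positions are counted from the start that the windows use, which lies inside the annotated span of the gene for SLC3A2 and SLC38A1. The windows of SLC3A2 and SLC38A1 were added after their values were seen. Of the 5 members that rose over 2-fold at some time, 4 had a window, and only that of SLC7A1 held TGATGNAA. Of the 7 that fell over 2-fold, 5 had a window, and only that of SLC1A3 held it.
SLC7A1 (chr13:29595663-29595692, minus strand, bases 7 to 14 after the start): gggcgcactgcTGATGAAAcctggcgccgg
SLC38A1 (chr12:46266502-46266531, minus strand, across the start): tcagacccgaaTGATGAAAagggatcagct
SLC3A2 (chr11:62881719-62881748, plus strand, bases 37 to 44 after the start, match on the opposite strand): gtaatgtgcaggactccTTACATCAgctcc
SLC1A3 (chr5:36596357-36596386, plus strand, upstream of the start): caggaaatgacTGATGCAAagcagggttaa
SLC1A3 is the one that fell. TGACNNNGC stood in 5 of the 44 (11.4%) and in 13.6% of all windows. Its members are SLC3A2, SLC7A1, SLC7A5, SLC7A6 and SLC7A7, which rose, fell or did not pass. The match in SLC7A1 is shown, since SLC7A1 is the only member with one that changed by more than 2-fold.
SLC7A1 (chr13:29595754-29595783, minus strand, upstream of the start): tgcccggcggTGACGCGGCcgagcgggccg
A match of letters is a description of the window and not a binding site.

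At 6 h, 11 of the 30 tested members were increased and 11 decreased by NXP800 at an adjusted p below 0.05, against 25% and 27.8% of all 15979 tested genes. Members passed more often than genes in general, 73.3% against 52.8%, and the median log2 fold change of the 30 was -0.02 beside -0.05 over all genes. These p-values come from the quasi-likelihood test of edgeR and were adjusted by the Benjamini-Hochberg method over the whole table. They are called edgeR adjusted p from here on. At 24 h, 14 were increased and 12 decreased, against 27.5% and 28.6% of all genes, with a median of 0.28 beside -0.003. The share that passed was then 86.7% of the members and 56% of all genes. SLC1A7, SLC3A1 and SLC7A7 passed the filter on low counts with fewer than 10 counts in some library. Without these genes, 10 were decreased at each time. Changes over 2-fold went up in 5 and down in 5 members at 6 h (6.02% and 5.23% of all genes), and up in 3 and down in 7 at 24 h (6.73% and 7.32%).

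The same direction was kept in most members. In 11 of the 30 the level was increased at both times (16.5% of all genes), and in 9 it was decreased at both (18.5%). The first group is SLC1A4, SLC1A5, SLC3A2, SLC6A9, SLC7A1, SLC7A11, SLC38A1, SLC38A2, SLC38A7, SLC38A9 and SLC43A1. The second is SLC1A1, SLC1A3, SLC1A7, SLC6A6, SLC7A2, SLC7A6, SLC7A8, SLC38A4 and SLC38A6. SLC38A10 passed in opposite directions, as did 2.12% of all genes, and SLC7A5, SLC7A7 and SLC43A2 passed at neither time. In 26 of the 30 the NXP800 and DMSO libraries did not overlap at 6 h, and in 26 at 24 h, against 62% and 59.1% of all genes. NXP800 was above DMSO in 13 and below it in 13 of them at 6 h (29.3% and 32.7% of all genes), and in 14 and 12 at 24 h (29% and 30.1%). All counts of the 59 members together took 0.401 ± 0.0203% of a DMSO library and 0.608 ± 0.0149% of an NXP800 library at 6 h, and 0.401 ± 0.0494% and 0.584 ± 0.0158% at 24 h (SD, n = 3). Because these are bulk libraries, fewer cells with a transcript and less transcript per cell cannot be told apart.

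**Figure D2:**
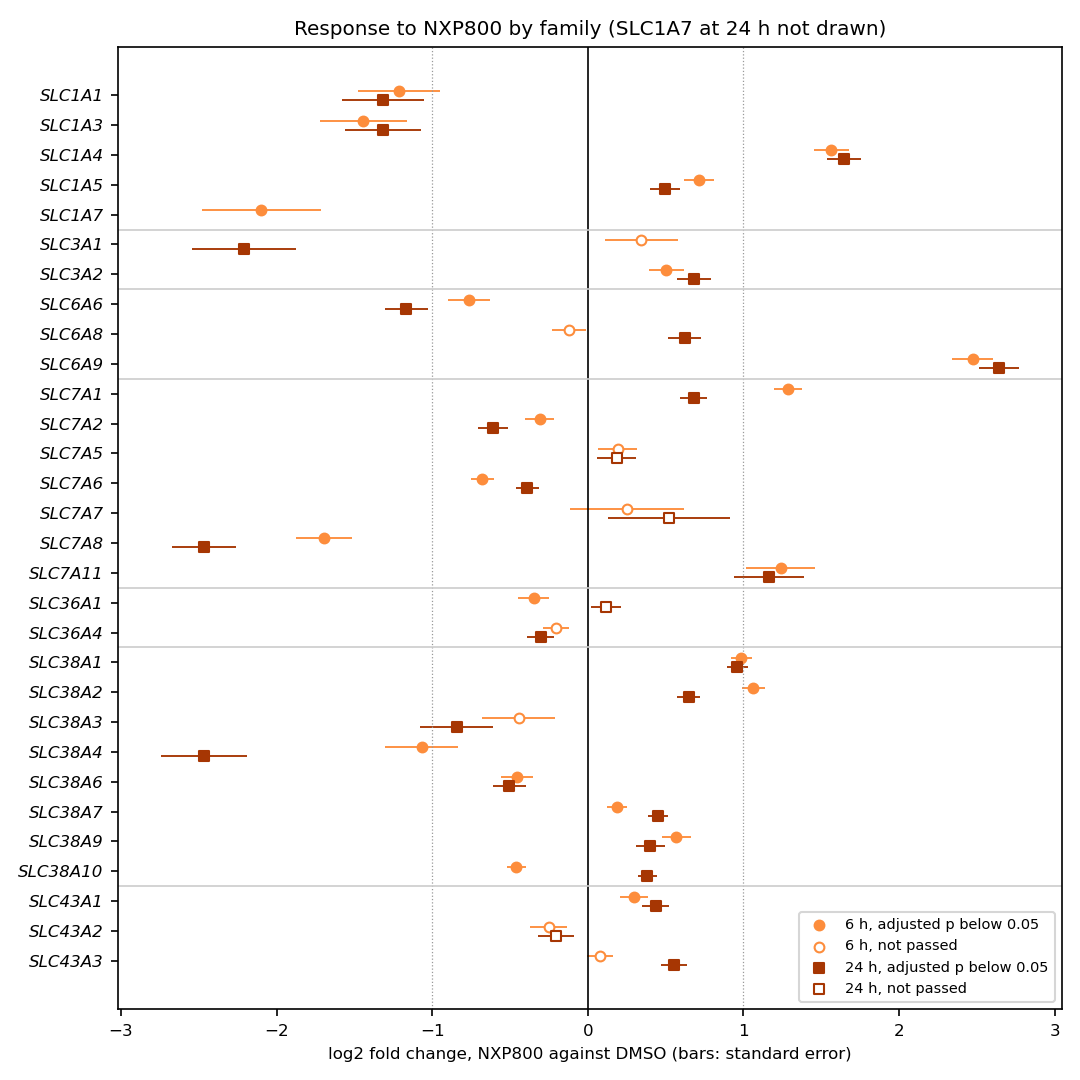
Response of the 30 tested members to NXP800, by family. The x axis is the log2 fold change against DMSO of the same time (circles, 6 h; squares, 24 h), bars are the standard error of the edgeR fit, filled points passed an adjusted p below 0.05, and dotted lines mark 2-fold; SLC1A7 at 24 h is not drawn, and of the points drawn SLC6A9 lies farthest to the right and SLC7A8, SLC38A4 and SLC3A1 at 24 h farthest to the left.

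Members of 1 family moved in both directions in SLC1, SLC6, SLC7 and SLC38 at each time, and in SLC3 at 24 h. At these times 52.8% (6 h) and 56% (24 h) of all genes were called. Of the 5 tested SLC1 members 2 rose and 3 fell at both times, and of the 8 tested SLC38 members 4 rose and 3 fell at 6 h and 5 rose and 3 fell at 24 h. Of the 7 tested SLC7 members 2 rose and 3 fell at each time. SLC6 had 1 rise and 1 fall among 3 tested at 6 h, and 2 rises and 1 fall at 24 h. The 3 SLC43 genes had 1 rise at 6 h and 2 at 24 h with no fall. The 2 tested SLC36 genes had 1 fall at each time and no rise, and the 2 SLC3 genes had 1 rise at 6 h, and 1 rise and 1 fall at 24 h. No test between families was run, since their members are few and are not replicates.

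The heavy chain SLC3A2 rose more than its light chain SLC7A5. SLC3A2 (chr11:62856109-62888860) encodes the heavy chain CD98, which carries SLC7A5, SLC7A6, SLC7A7, SLC7A8 and SLC7A11 to the cell surface. It stood at 423, 398 and 374 CPM in the DMSO and 601, 528 and 565 CPM in the NXP800 libraries of 6 h. At 24 h it stood at 565, 422 and 394 CPM in DMSO and 820, 681 and 717 CPM in NXP800. All NXP800 libraries lay above all DMSO libraries of their time, with the first replicate highest in every group. SLC3A2 rose by 0.50 on the log2 scale at 6 h (SE 0.11, edgeR adjusted p = 0.00122) and by 0.68 at 24 h (SE 0.11, edgeR adjusted p = 7.08e-05).

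SLC7A5 (chr16:87830023-87869507) had 1394, 1288 and 1203 CPM in DMSO and 1543, 1462 and 1434 CPM in NXP800 at 6 h. At 24 h it had 1825, 1290 and 1278 CPM in DMSO and 1910, 1407 and 1678 CPM in NXP800. The groups were apart at 6 h and overlapped at 24 h, where the first replicate was the highest in both. Its log2 fold change was 0.19 at 6 h (SE 0.13, edgeR adjusted p = 0.215) and 0.19 at 24 h (SE 0.13, edgeR adjusted p = 0.225). With the replicate number as a block both passed, at edgeR adjusted p = 0.00995 and 0.00968. Both also passed with no filter on low counts (edgeR adjusted p = 0.0454 and 0.032), and the value at 6 h passed in a fit of the 6 libraries of that time alone (0.0082). The value at 24 h passed without DMSO replicate 1 (edgeR adjusted p = 0.00839) or without NXP800 replicate 2 (0.0433) of 24 h. Within each library the log2 ratio of SLC7A5 to SLC3A2 counts was 1.70 ± 0.02 in DMSO and 1.39 ± 0.07 in NXP800 at 6 h, and 1.67 ± 0.05 and 1.17 ± 0.10 at 24 h (SD, n = 3). The ratio thus fell by 0.31 and by 0.50 without overlap (exact permutation test within time points on the mean change of both times, 2-sided, p = 0.005, the smallest the 400 arrangements allow, adjusted p = 0.00875 over 14 pairs).

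SLC7A11 (chr4:138164097-138242349) is the light chain of the antiporter that takes up cystine for glutamate and so feeds glutathione synthesis. At 6 h it stood at 205, 149 and 192 CPM in DMSO and 436, 394 and 463 CPM in NXP800, and at 24 h at 127, 73.2 and 60.8 CPM in DMSO and 250, 199 and 137 CPM in NXP800. No NXP800 library overlapped its DMSO group, but the DMSO level itself was lower at 24 h, and the first replicate of 24 h was high in both. Since the share of reads on no gene also differed with time, time and library set cannot be told apart between the DMSO groups. SLC7A11 rose by 1.24 on the log2 scale at 6 h (SE 0.22, edgeR adjusted p = 0.000205) and by 1.17 at 24 h (SE 0.23, edgeR adjusted p = 0.000343). Its ratio to SLC3A2 rose by 0.75 and by 0.50 on the log2 scale, with overlapping libraries at 24 h (exact permutation p = 0.01, adjusted p = 0.014). Exons of an antisense gene, SLC7A11-AS1, cover 8.97% of its exon length, and the strand setting of the counting is not stated.

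The LAT2 light chain SLC7A8 (chr14:23125295-23183660), which shares neutral substrates with LAT1, went the other way. It had 10.2, 10.6 and 8.57 CPM in DMSO and 3.04, 3.24 and 2.76 CPM in NXP800 at 6 h, and 4.78, 8.14 and 8.38 CPM in DMSO and 1.16, 1.35 and 1.34 CPM in NXP800 at 24 h. Every NXP800 library lay below every DMSO library of its time. SLC7A8 fell by 1.70 on the log2 scale at 6 h (SE 0.18, edgeR adjusted p = 1.01e-06) and by 2.46 at 24 h (SE 0.21, edgeR adjusted p = 5.36e-08). The ratio of SLC7A5 to SLC7A8 rose by 1.89 at 6 h and by 2.61 at 24 h on the log2 scale (exact permutation p = 0.005, adjusted p = 0.00875).

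The y+L light chains SLC7A6 and SLC7A7 exchange cationic against neutral amino acids. SLC7A6 ranged from 120 to 134 CPM in DMSO and from 77.8 to 79 CPM in NXP800 at 6 h. It fell by 0.68 on the log2 scale (SE 0.07, edgeR adjusted p = 1.49e-06), and by 0.39 at 24 h (SE 0.07, edgeR adjusted p = 0.000314). Exons of genes on the other strand, SLC7A6OS among them, cover 55.6% of the exon length of SLC7A6, so its counts are uncertain without the strand setting. SLC7A7 had 5 to 16 counts in a library and passed at neither time. Against SLC7A7, SLC7A6 fell by 0.90 and 0.84 on the log2 scale (exact permutation p = 0.005, adjusted p = 0.00875), and SLC7A5 rose against SLC7A6 by 0.87 and 0.59, with overlap at 24 h (exact permutation p = 0.01, adjusted p = 0.014).

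The cationic carriers that need no heavy chain moved in opposite directions. SLC7A1 (chr13:29509414-29595688), the CAT1 carrier of arginine and lysine whose promoter window is shown above, stood at 285, 245 and 257 CPM in DMSO and 656, 659 and 605 CPM in NXP800 at 6 h. At 24 h it stood at 309, 248 and 269 CPM in DMSO and 473, 452 and 397 CPM in NXP800. The rise was more than 2-fold in the 6 h libraries and smaller, though still without overlap, at 24 h. It was 1.29 on the log2 scale at 6 h (SE 0.09, edgeR adjusted p = 9.46e-09) and 0.68 at 24 h (SE 0.09, edgeR adjusted p = 6.91e-06). CAT2, encoded by SLC7A2, ranged from 32.9 to 37.5 CPM in DMSO and from 26.5 to 29.8 CPM in NXP800 at 6 h. It fell by 0.31 on the log2 scale (SE 0.09, edgeR adjusted p = 0.0109), and by 0.61 at 24 h (SE 0.09, edgeR adjusted p = 4.30e-05). The fall at 6 h did not pass without the second NXP800 library of 6 h, at an edgeR adjusted p = 0.0569. The ratio of SLC7A1 to SLC7A2 rose by 1.60 and by 1.30 on the log2 scale (exact permutation p = 0.005, adjusted p = 0.00875).

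The other heavy chain, SLC3A1 (chr2:44275480-44322437), pairs in kidney and gut with SLC7A9, which had 7 counts over the 12 libraries together. SLC3A1 had 2.06, 2.21 and 1.7 CPM in DMSO and 2.46, 2.6 and 2.52 CPM in NXP800 at 6 h, and 0.736, 1.72 and 1.75 CPM in DMSO and 0.264, 0.376 and 0.255 CPM in NXP800 at 24 h. NXP800 libraries were above DMSO at 6 h and below it at 24 h. The log2 fold change of 0.34 at 6 h did not pass (SE 0.24, edgeR adjusted p = 0.235), and at 24 h SLC3A1 fell by 2.21 (SE 0.34, edgeR adjusted p = 3.45e-05). Exons of other genes cover 26.9% of its exon length on its own strand and 29.4% on the other, where PREPL lies.

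**Figure D3:**
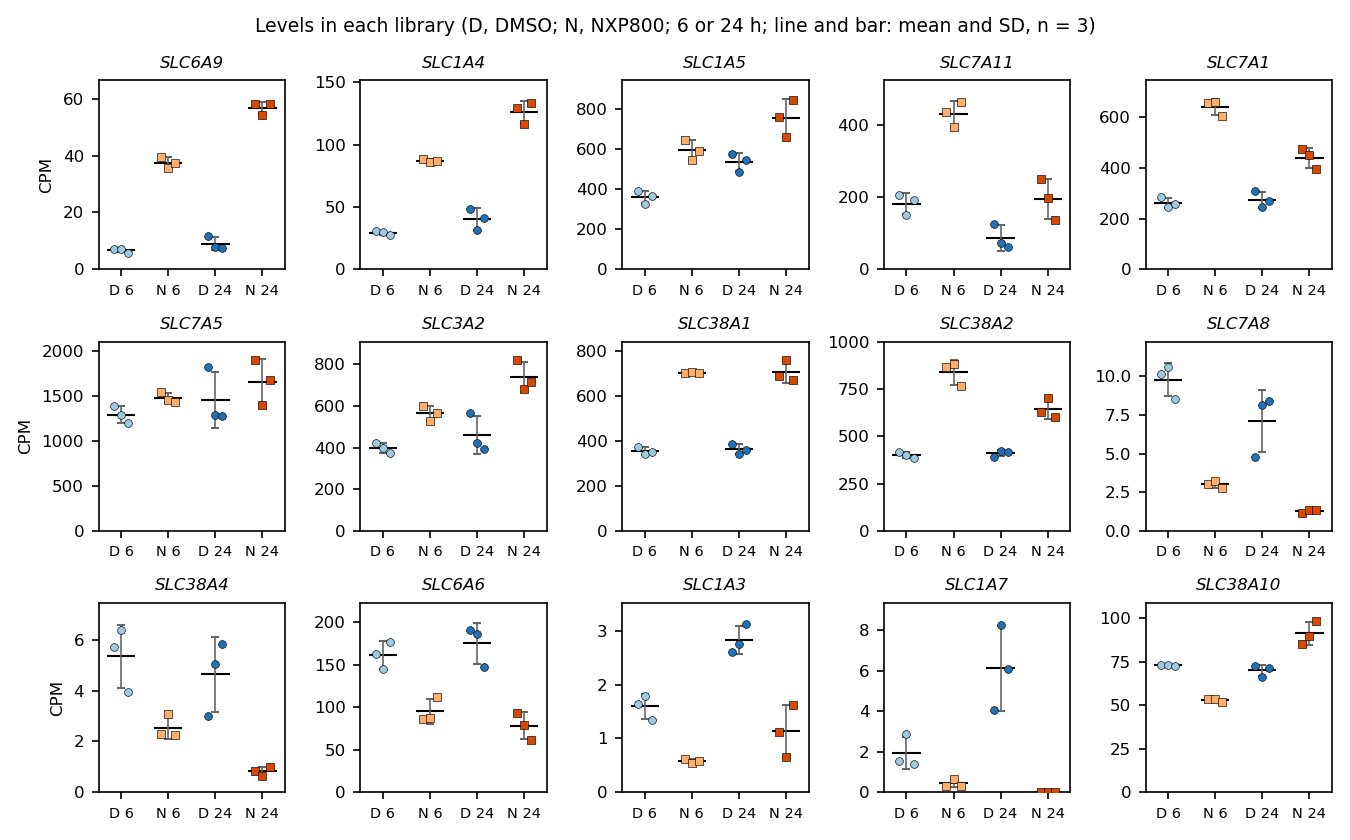
Levels of 15 transporter genes in each of the 12 libraries. The y axis is CPM from 0 on a linear scale of its own for each gene, points are libraries (D, DMSO; N, NXP800; 6 or 24 h), and line and bar are mean and SD of 3; SLC6A9 in NXP800 stands at 35.7 CPM or more in every library against at most 11.8 CPM in DMSO, and SLC1A7 at 24 h drops to 0.0314 CPM or less.

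In SLC1 the neutral carriers SLC1A4 (ASCT1, for alanine, serine and cysteine) and SLC1A5 (ASCT2, for glutamine) rose. The 3 tested glutamate and aspartate carriers fell. Level split the family in the same way. In DMSO at 6 h SLC1A4 and SLC1A5 had means of 29.4 and 362 CPM, and the 3 others had 1.07 to 1.94 CPM. A link of the response with substrate or with level was not tested. SLC1A4 (chr2:64988479-65023865) stood at 31.1, 29.7 and 27.5 CPM in DMSO and 88.3, 85.9 and 87.1 CPM in NXP800 at 6 h, and at 48.3, 31.4 and 41.4 CPM in DMSO and 130, 117 and 133 CPM in NXP800 at 24 h. The groups were far apart at both times. SLC1A4 rose by 1.57 on the log2 scale at 6 h (SE 0.11, edgeR adjusted p = 1.25e-08) and by 1.65 at 24 h (SE 0.11, edgeR adjusted p = 4.09e-09).

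SLC1A5 (chr19:46774883-46788594) stood at 392, 329 and 366 CPM in DMSO and 645, 546 and 594 CPM in NXP800 at 6 h, and at 578, 487 and 548 CPM in DMSO and 761, 662 and 849 CPM in NXP800 at 24 h. The groups did not overlap, and DMSO at 24 h was nearly as high as NXP800 at 6 h. SLC1A5 rose by 0.72 at 6 h (SE 0.10, edgeR adjusted p = 1.31e-05) and by 0.49 at 24 h (SE 0.10, edgeR adjusted p = 0.00038) on the log2 scale. Relative to SLC1A5, SLC1A4 rose by 0.85 and 1.18 (exact permutation p = 0.005, adjusted p = 0.00875), so the carrier with the lower level changed more.

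The glutamate carriers were scarce in these cells. SLC1A1 (EAAT3, chr9:4490468-4587469) had 1.05, 1.36 and 0.82 CPM in DMSO and 0.43, 0.428 and 0.522 CPM in NXP800 at 6 h, and 1.27, 1.28 and 1.06 CPM in DMSO and 0.528, 0.376 and 0.542 CPM in NXP800 at 24 h, from 12 to 43 counts in a library. SLC1A3 (EAAT1, chr5:36596588-36688334) had 1.65, 1.8 and 1.34 CPM in DMSO and 0.614, 0.551 and 0.583 CPM in NXP800 at 6 h, and 2.61, 2.76 and 3.12 CPM in DMSO and 1.12, 0.658 and 1.63 CPM in NXP800 at 24 h. In both genes the NXP800 libraries lay below all DMSO libraries of their time. SLC1A1 fell by 1.21 (SE 0.26, edgeR adjusted p = 0.00103) and 1.32 (SE 0.26, edgeR adjusted p = 0.000441) on the log2 scale, and SLC1A3 by 1.44 (SE 0.28, edgeR adjusted p = 0.000404) and 1.32 (SE 0.24, edgeR adjusted p = 0.000239), at 6 h and 24 h. The ratio of SLC1A1 to SLC1A3 overlapped between the groups at both times, and its change of 0.25 and 0.09 did not pass (exact permutation p = 0.285, adjusted p = 0.285).

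SLC1A7 (EAAT5, chr1:53087183-53142638), a glutamate carrier known from the retina, had 1.55, 2.87 and 1.4 CPM in DMSO and 0.338, 0.673 and 0.338 CPM in NXP800 at 6 h. It fell by 2.10 on the log2 scale (SE 0.39, edgeR adjusted p = 0.000255). At 24 h the DMSO libraries had 121, 245 and 177 counts, higher than at 6 h, and the NXP800 libraries 0, 1 and 0. The sums of 543 and 1 give a ratio of NXP800 to DMSO of 0.00186 (exact 95% interval 4.7e-05 to 0.0104, for counting error only). The decrease passed (edgeR adjusted p = 9.56e-09), and its fitted fold change is not given because it depends on the prior count.

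SLC6A9 (chr1:43996483-44031462), the glycine carrier GlyT1, had the largest rise of the members at both times. It stood at 7.1, 7.25 and 5.92 CPM in DMSO and 39.5, 35.7 and 37.3 CPM in NXP800 at 6 h, and at 11.8, 7.77 and 7.62 CPM in DMSO and 58.1, 54.1 and 57.9 CPM in NXP800 at 24 h. The lowest NXP800 library was above the highest DMSO library by a wide margin. SLC6A9 rose by 2.47 on the log2 scale at 6 h (SE 0.13, edgeR adjusted p = 5.91e-10), a fold of 5.55, and by 2.64 at 24 h (SE 0.13, edgeR adjusted p = 1.86e-10), a fold of 6.24. Exons of CCDC24, on the other strand, cover 7.87% of its exon length.

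SLC6A6 (chr3:14402576-14489349) carries taurine and SLC6A8 creatine, neither of which is built into protein. SLC6A6 had 163, 145 and 177 CPM in DMSO and 86.4, 87.6 and 112 CPM in NXP800 at 6 h, and 192, 187 and 148 CPM in DMSO and 93.2, 79.7 and 61.6 CPM in NXP800 at 24 h. All NXP800 libraries were below all DMSO libraries, and it fell by 0.76 (SE 0.14, edgeR adjusted p = 0.000193) and 1.17 (SE 0.14, edgeR adjusted p = 2.48e-06) on the log2 scale at 6 h and 24 h. The SLC6A8 groups overlapped at 6 h, and its response of -0.12 on the log2 scale did not pass (SE 0.11, edgeR adjusted p = 0.379). At 24 h it ranged from 26.9 to 30.8 CPM in DMSO and from 42.8 to 46 CPM in NXP800 and rose by 0.62 (SE 0.10, edgeR adjusted p = 9.48e-05). The ratio of SLC6A6 to SLC6A8 fell by 0.65 at 6 h and by 1.80 at 24 h on the log2 scale (exact permutation p = 0.005, adjusted p = 0.00875).

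SLC38A1, SLC38A2 and SLC38A4 are the system A carriers, which bring in small neutral amino acids with sodium, and their genes lie side by side on the minus strand of chromosome 12, at chr12:46183063-46269043, chr12:46358188-46372773 and chr12:46764761-46832431. The first pair rose and the last fell. SLC38A2 stood at 416, 399 and 387 CPM in DMSO and 869, 880 and 764 CPM in NXP800 at 6 h, and at 393, 423 and 419 CPM in DMSO and 631, 704 and 602 CPM in NXP800 at 24 h. Its libraries did not overlap, and the rise was 1.06 (SE 0.07, edgeR adjusted p = 1.15e-08) and 0.65 (SE 0.07, edgeR adjusted p = 1.84e-06) on the log2 scale. SLC38A1 ranged from 342 to 373 CPM in DMSO and from 701 to 706 CPM in NXP800 at 6 h, and rose by 0.99 (SE 0.07, edgeR adjusted p = 8.93e-09) and 0.96 (SE 0.07, edgeR adjusted p = 7.31e-09). The ratio of SLC38A1 to SLC38A2 changed by -0.07 at 6 h, where the groups overlapped, and by 0.31 at 24 h, where NXP800 lay above DMSO without overlap. The mean of both times did not pass (exact permutation p = 0.17, adjusted p = 0.198).

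SLC38A4 had 5.7, 6.37 and 3.95 CPM in DMSO and 2.3, 3.06 and 2.27 CPM in NXP800 at 6 h, and 3.01, 5.04 and 5.84 CPM in DMSO and 0.859, 0.658 and 0.989 CPM in NXP800 at 24 h. The NXP800 libraries of 24 h were all under 1 CPM and none overlapped DMSO. SLC38A4 fell by 1.07 (SE 0.23, edgeR adjusted p = 0.00111) and by 2.47 (SE 0.28, edgeR adjusted p = 1.40e-06) on the log2 scale at 6 h and 24 h. Against SLC38A4, SLC38A2 rose by 2.11 and 3.06 (exact permutation p = 0.005, adjusted p = 0.00875). The system N glutamine carrier SLC38A3, at 0.759 to 1.95 CPM over all libraries, fell at 24 h by 0.84 (SE 0.24, edgeR adjusted p = 0.00612), and its log2 fold change at 6 h was -0.44 (SE 0.23, edgeR adjusted p = 0.124).

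The lysosomal members gave smaller changes. SLC38A9 (chr5:55625845-55712335) reports arginine in the lysosome to the kinase complex mTORC1. It stood at 12.1, 12.5 and 11.1 CPM in DMSO and 17.9, 19.5 and 15.6 CPM in NXP800 at 6 h, and at 11.8, 12.1 and 11 CPM in DMSO and 14.9, 15.6 and 15.5 CPM in NXP800 at 24 h. It rose without overlap, by 0.57 (SE 0.09, edgeR adjusted p = 9.72e-05) and 0.40 (SE 0.10, edgeR adjusted p = 0.00192) on the log2 scale. The lysosomal glutamine carrier SLC38A7 rose by 0.19 (SE 0.07, edgeR adjusted p = 0.0236) and 0.45 (SE 0.06, edgeR adjusted p = 1.82e-05). Its call at 6 h was lost with no filter on low counts, or without DMSO replicate 2 or 3 of 6 h. Without NXP800 replicate 1 or 3 of 6 h it was lost too, and the edgeR adjusted p of these fits was up to 0.113. The ratio of SLC38A7 to SLC38A9 changed by -0.38 at 6 h, with NXP800 below DMSO, and by 0.05 at 24 h, with overlap, and the mean of both times did not pass (exact permutation p = 0.135, adjusted p = 0.172).

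SLC36A1 (chr5:151344596-151556085) moves small amino acids out of the lysosome together with protons. It had 15.4, 13.8 and 16.6 CPM in DMSO and 11, 12.5 and 12.5 CPM in NXP800 at 6 h, and 17.1, 14.8 and 14.7 CPM in DMSO and 17.6, 17.3 and 15.7 CPM in NXP800 at 24 h. The groups were apart at 6 h and overlapped at 24 h. SLC36A1 fell by 0.35 on the log2 scale at 6 h (SE 0.10, edgeR adjusted p = 0.00789), and its value at 24 h was 0.12 (SE 0.10, edgeR adjusted p = 0.325). SLC36A4 fell at 24 h by 0.30 (SE 0.09, edgeR adjusted p = 0.00803), and at 6 h its log2 fold change was -0.20, which passed with the replicate block (edgeR adjusted p = 0.0567 without and 0.0222 with it) and without NXP800 24 h replicate 3 (0.0442). The ratio of SLC36A1 to SLC36A4 changed by -0.14 at 6 h, with overlap, and by 0.42 at 24 h, with NXP800 above DMSO. The mean of both times, in which these signs cancel, did not pass (exact permutation p = 0.25, adjusted p = 0.269).

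SLC38A6 and SLC38A10 are less well characterised. SLC38A6 fell by 0.46 (SE 0.10, edgeR adjusted p = 0.00167) and 0.50 (SE 0.11, edgeR adjusted p = 0.000785) on the log2 scale at 6 h and 24 h. SLC38A10 was the member with opposite calls. It ranged from 72.6 to 73.5 CPM in DMSO and from 51.8 to 53.9 CPM in NXP800 at 6 h, and from 66.5 to 72.4 CPM in DMSO and from 85.5 to 98.5 CPM in NXP800 at 24 h. The DMSO level was much alike at both times, and NXP800 lay below it at 6 h and above it at 24 h. SLC38A10 fell by 0.46 (SE 0.06, edgeR adjusted p = 1.46e-05) and rose by 0.38 (SE 0.06, edgeR adjusted p = 6.91e-05).

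SLC43A1 and SLC43A2 let large neutral amino acids through without exchange, and SLC43A3 is known to carry purine bases. SLC43A1 rose by 0.30 (SE 0.09, edgeR adjusted p = 0.00998) and 0.44 (SE 0.09, edgeR adjusted p = 0.000497) on the log2 scale at 6 h and 24 h. SLC43A2 had log2 fold changes of -0.25 and -0.20, which passed with the replicate block (edgeR adjusted p = 0.0893 and 0.144 without, 0.0165 and 0.0254 with it). They also passed without NXP800 24 h replicate 1 (edgeR adjusted p = 0.0405 and 0.0102). The ratio of SLC43A1 to SLC43A2 rose by 0.55 and 0.65 without overlap (exact permutation p = 0.005, adjusted p = 0.00875). SLC43A3 rose at 24 h by 0.55 (SE 0.09, edgeR adjusted p = 4.11e-05), and at 6 h its value was 0.08 (SE 0.08, edgeR adjusted p = 0.461). Another gene on the same strand covers 29.9% of its exon length.

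**Figure D4:**
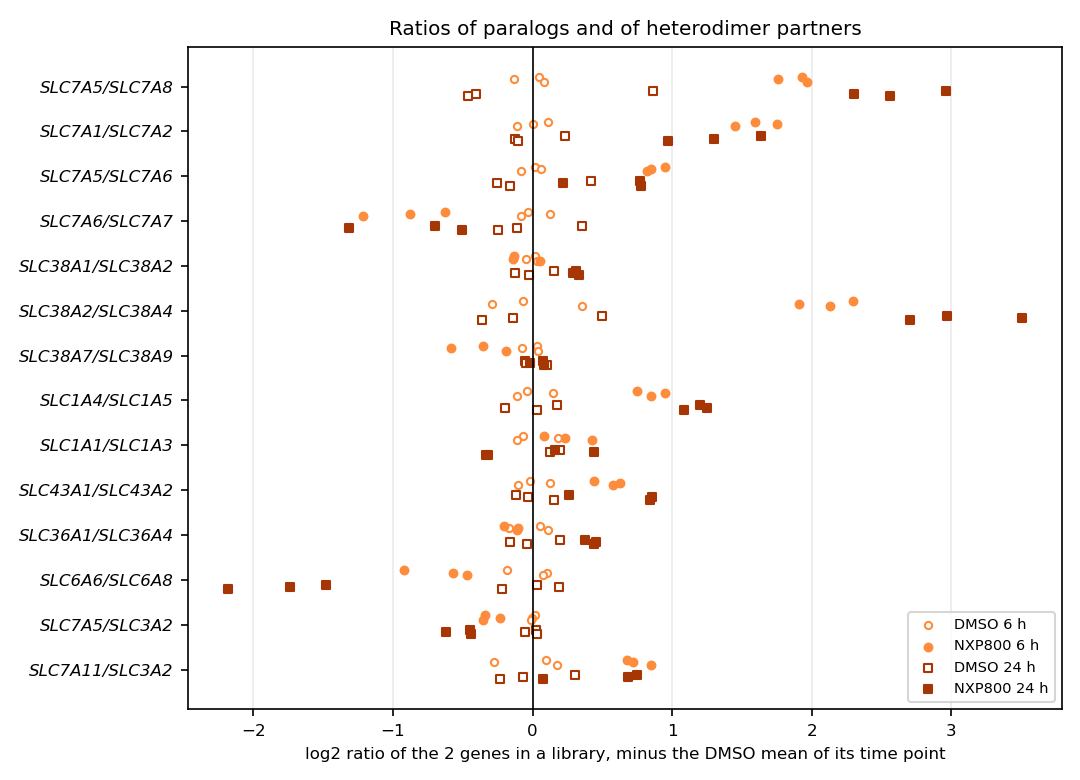
Ratios of 14 pairs of paralogs or heterodimer partners. The x axis is the log2 ratio of counts in a library minus the DMSO mean of its time point, each point is 1 library (circles, 6 h; squares, 24 h; open, DMSO; filled, NXP800), and the line at 0 is the DMSO mean; 10 of the 14 pairs passed the exact permutation test, with SLC38A2/SLC38A4 and SLC7A5/SLC7A8 farthest from 0.

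Over all 14 pairs compared within libraries, 10 changed with NXP800 at an adjusted p below 0.05. The 4 that did not pass were SLC38A1/SLC38A2, SLC38A7/SLC38A9, SLC1A1/SLC1A3 and SLC36A1/SLC36A4. The change at 1 time alone was not tested. Each of these ratios combines genes whose own values are given above, so the pairs that share a gene are not independent.

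Whether the response itself changed between 6 h and 24 h was tested as the difference of the responses, in which each time point has its own DMSO libraries. Of the 30 members 10 passed, 5 with a positive and 5 with a negative difference, against 12% and 13.8% of all genes. With the replicate block 6 differences were positive and 9 negative, and the shares of all genes given here are from the fit without it. Differences beyond 1 in size on the log2 scale were negative in 3 members, SLC1A7, SLC3A1 and SLC38A4, and positive in none, against 3.54% and 3.14% of all genes. The rises of SLC7A1 and SLC38A2 were smaller at 24 h, by 0.61 (SE 0.12, edgeR adjusted p = 0.00205) and by 0.41 (SE 0.10, edgeR adjusted p = 0.00849) on the log2 scale. The falls of SLC38A4 and SLC1A7 were deeper, with a difference of -1.40 (SE 0.37, edgeR adjusted p = 0.0105) for SLC38A4, and SLC3A1 turned from no called change to a fall with -2.55 (SE 0.41, edgeR adjusted p = 0.000311). SLC38A10 had 0.84 (SE 0.09, edgeR adjusted p = 6.47e-06), SLC6A8 0.74 (SE 0.15, edgeR adjusted p = 0.00201) and SLC43A3 0.48 (SE 0.12, edgeR adjusted p = 0.0086). SLC36A1 and SLC38A7 passed close to the threshold. For SLC6A9 the difference was 0.17 (SE 0.18, edgeR adjusted p = 0.542) and for SLC1A4 0.08 (SE 0.15, edgeR adjusted p = 0.741), so a change of these rises with time was not detected.

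Other genes of amino acid transport and supply were read from 3 lists written from general knowledge. Of 22 further amino acid carriers, mitochondrial, lysosomal and vesicular ones among them, 15 were tested, and 3 rose and 9 fell at 6 h, 2 rose and 7 fell at 24 h. The share called was 80% at 6 h and 60% at 24 h, beside 52.8% and 56% of all genes. Their median log2 fold changes were -0.34 and -0.14, beside -0.05 and -0.003 over all genes. At 6 h the mitochondrial glutamate carrier SLC25A18 fell by 1.31, the aromatic amino acid carrier SLC16A10 by 1.17 and the aspartate and glutamate carrier SLC25A12 by 1.14 on the log2 scale (edgeR adjusted p = 0.000144, 4.02e-06 and 1.02e-07). The lysosomal cysteine carrier MFSD12 rose by 0.45, the lysosomal cationic carrier SLC66A1 by 0.25 and the mitochondrial glycine carrier SLC25A38 by 0.19 (edgeR adjusted p = 0.000826, 0.00599 and 0.00802).

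Of 25 genes of lysosomal amino acid sensing upstream of mTORC1, all tested, 8 rose and 6 fell at 6 h and 8 rose and 9 fell at 24 h, with medians of 0.04 and 0.12. The share called, 56% at 6 h and 68% at 24 h, stood beside 52.8% and 56% of all genes. SESN2, the leucine sensor Sestrin2, rose by 4.40 and 3.19 on the log2 scale at 6 h and 24 h (edgeR adjusted p = 3.49e-11 and 3.10e-10). CASTOR2, a partner of the arginine sensor CASTOR1, fell by 1.12 at 6 h (edgeR adjusted p = 0.00526), and RRAGD, a GTPase that recruits mTORC1, rose by 1.15 at 24 h (edgeR adjusted p = 0.000147).

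Of 20 targets of ATF4 in amino acid supply, 19 were tested and 16 rose and 1 fell at each time (89.5% called), with medians of 1.71 and 1.52 on the log2 scale. Over all genes 52.8% were called at 6 h and 56% at 24 h, with medians of -0.05 and -0.003. SESN2 belongs to this list too. At 6 h the largest rises after SESN2 were 4.26 for CTH, an enzyme of cysteine synthesis, and 4.18 for the pseudokinase gene TRIB3 (edgeR adjusted p = 7.10e-12 and 5.71e-12). ATF5 fell by 1.04 at 6 h and by 0.89 at 24 h (edgeR adjusted p = 3.82e-07 and 1.51e-06). These 3 lists were chosen with results of these data known, so their counts are descriptions.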

How the data were processed

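RNA-seq libraries were made from polyA RNA of MNNG/HOS cells with a strand-specific DNBSEQ kit. Per the submitters' processing notes, the authors used fastp 0.20.1, STAR 2.7.5a and HTSeq 0.12.4 on hg38 with the RefSeq annotation of GRCh38.p14, and they deposited raw counts for each gene symbol, without normalization. The strand setting and the mode for overlapping genes are not given in the sources used here. Entries that name no gene (8.02 to 12.2% of all) stayed out of library sizes and tests. The 300 nM dose comes from the study's methods.

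The analysis used edgeR 4.0.16 in R 4.3.3, TMM scaling, filterByExpr (15979 genes) and the quasi-likelihood test in a model of 4 groups and 12 libraries, with calls at a Benjamini-Hochberg adjusted p below 0.05. At 30810614 to 31947656 counts per library, the spread between replicates sets the precision of all but the low genes. Replicates differed by more than sampling noise (chi-square per degree of freedom of 7.36 to 26.4). Ratios of 2 genes were log2 of counts plus 0.5 per library, permuted within time points. Positions are RefSeq's (GRCh38.p14), and exon lengths and overlaps are from GENCODE. The edgeR fits, with and without the replicate block, and the DESeq2 fit were tried on simulated counts with planted 2-fold changes. These were planted only in genes above a minimum mean count, with the same spread between replicates for all genes. The simulation did not cover the permutation tests of ratios.

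The members and lists were chosen with earlier results of these data known. Values in every library are given for members called above 2-fold and for 8 members chosen by their role (SLC3A2, SLC1A5, SLC7A5, SLC7A11, SLC38A2, SLC7A1, SLC38A9 and SLC36A1), and for other members ranges and the fold changes of those called. Uncalled values that the text gives beside a called one, and SLC38A10's ranges, were added later. Some genes are not reported here by name. From each list at most the 3 largest called changes each way are named.

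The main model and the exact permutation tests did not use the deposited replicate numbers. These numbers served as a pairing only in the alternative with the replicate block. Deviations from the group means, taken across genes, had an r of 0.159 to 0.329 between a DMSO and an NXP800 library that share a number and of -0.268 to 0.058 otherwise. The deviations within a group cancel for each gene, so lower r for unlike numbers partly follows from higher r for shared numbers. Genes are not independent replicates. Alternatives were DESeq2 1.42.0 (size factors, Wald test), library size only, no filter, at least 10 counts in every library, a fit of each time point alone (6 libraries), the replicate number as block, and leaving out each library.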

Additional observations from a re-analysis of the deposited data

Results flagged for a closer look

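For 10 members the response to NXP800 differed between 24 h and 6 h by the test of the difference itself. The difference, 24 h minus 6 h on the log2 scale, was -0.61 for SLC7A1, -0.41 for SLC38A2, -1.40 for SLC38A4 and -2.55 for SLC3A1. It was 0.84 for SLC38A10, 0.74 for SLC6A8, 0.48 for SLC43A3, 0.47 for SLC36A1 (edgeR adjusted p = 0.023) and 0.26 for SLC38A7 (edgeR adjusted p = 0.0438). The difference of SLC36A1 did not pass without DMSO 6 h replicate 3, NXP800 6 h replicate 1, or DMSO 24 h replicate 2 or 3 (edgeR adjusted p up to 0.068). That of SLC38A7 did not pass in 10 of the 12 fits that each left out 1 library (edgeR adjusted p up to 0.142). The difference of SLC38A7 also did not pass with DESeq2 size factors, with no filter on low counts or in the DESeq2 Wald test. For SLC1A7 the fitted difference of -6.61 depends on the prior count, since 1 count was found in its NXP800 libraries of 24 h. Between 6 h and 24 h the reads outside annotated genes fell from at least 6.66% to at most 3.67% of a library, and the part of this in these differences was not tested.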

How the results depend on the processing

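Depth limits the low members: SLC1A1, SLC1A3, SLC3A1, SLC1A7 and SLC7A7 had under 20 counts in some library. The numbers of members called ran from 10 to 12 increased and 10 to 13 decreased at 6 h, and from 14 to 15 increased and 10 to 13 decreased at 24 h, over all 19 alternatives. Scaling by library size only moved the median of all genes by 0.0171 at 6 h and 0.0902 at 24 h. Positive differences of responses numbered 5, and between 3 and 6 when 1 library was left out, with 3 without NXP800 6 h replicate 1 or DMSO 24 h replicate 3. Negative differences numbered 5, against 3 with at least 10 counts in every library, which drops SLC1A7 and SLC3A1, and 9 with the replicate block, and between 5 and 6 with 1 library left out. The 5 differences that passed only with the block, or with it and other settings, were those of SLC1A5, SLC6A6, SLC7A2, SLC7A6 and SLC7A8 (edgeR adjusted p = 0.0221, 0.000591, 0.00986, 0.00687 and 0.00337 with it, and 0.257, 0.138, 0.109, 0.0518 and 0.052 without). Beside these and the changes of SLC7A5, SLC36A4 and SLC43A2, the block changed no other call of a single member or pair. The fall of SLC36A4 at 24 h did not pass with library size only (edgeR adjusted p = 0.0537). With the stricter core TTGCATCA the share of promoters with a match was 0.923% of all windows in place of 3.67%. Among members increased at both times it was 0 of 10 windows in place of 3 of 10 (30%). Among members decreased at both times it was 1 of 7 windows (14.3%) with either core, that of SLC1A3. Recomputed values of single members numbered 1401, with differences of responses only where they passed in the main fit or with the block. None changed sign against the main fit, called or not. Of them 1346 kept their side of the threshold, 24 no longer passed and 31 newly passed. The cause of these changes was not tested. No ratio of 2 genes changed its call.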
